A study of Homo sapiens with 9 samples.

Results

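The genes described here are 8 genes of hepatic gluconeogenesis: 5 enzymes (PC, PCK1, PCK2, FBP1 and G6PC3), the glucose-6-phosphate transporter SLC37A4, the transcriptional coactivator PPARGC1A and the transcription factor CREB3L3. They were taken by symbol from the 19317 genes of the deposited table, and all 8 were found. They were followed in HepG2, an established human hepatocellular carcinoma cell line, across 2 cell models of fatty liver and a control, by RNA sequencing of total RNA depleted of ribosomal RNA. The DNL group (de novo lipogenesis, 3 samples) was kept for 1 week in DMEM containing insulin at 10 µg/ml and the liver X receptor activator T0901317 at 10 µM. The OA group (3 samples) had 25 µM oleic acid, delivered in 11% BSA, for 6 hours in DMEM. The WT group (3 samples) was the control, in RPMI. All media carried 10% FBS and 1% P/S, and the genotype label is WT for every sample. Medium, additives and duration therefore differed together between groups, no sample had DMEM alone or BSA without oleic acid, and these factors cannot be told apart. HepG2 is a single tumour line and stands in for hepatocytes only as far as it keeps their expression.

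Gluconeogenesis makes glucose from lactate, amino acids and glycerol, in liver and kidney, mainly in fasting. It runs glycolysis backwards except at its one-way steps. Pyruvate is carboxylated to oxaloacetate in mitochondria by PC and turned into phosphoenolpyruvate by PCK1 in the cytosol or PCK2 in mitochondria. Fructose 1,6-bisphosphate is dephosphorylated by FBP1. Glucose 6-phosphate is carried into the endoplasmic reticulum by SLC37A4 and cleaved there by G6PC1, the liver and kidney enzyme, or by its widely expressed relative G6PC3. In hepatocytes glucagon raises and insulin lowers transcription of PCK1 and G6PC1. PPARGC1A encodes PGC-1 alpha, a coactivator of nuclear receptors and FOXO1 induced in fasting liver, and CREB3L3 encodes CREB-H, a liver and gut factor anchored in the endoplasmic reticulum and released by cleavage.

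The mitochondrial carboxykinase and the coactivator were lower in both models. PCK2 and PPARGC1A fell in DNL and further in OA. CREB3L3 fell in DNL and rose in OA. PC fell in DNL and was 1.10-fold higher in OA, a call that was lost in 4 of 18 alternatives, 3 of which left out 1 library. PCK1 rose in DNL, from a very low level. Of the 7 members with enough counts to be tested, 5 changed in DNL against WT (1 higher, 4 lower), where 53.8% of all 13636 tested genes were called, 27.1% higher and 26.8% lower. In OA against WT 4 changed (2 higher, 2 lower), against 60.0% of all genes (30.4% higher, 29.7% lower). In DNL against OA 6 changed (4 higher, 2 lower), against 62.8% of all genes (31.9% higher, 30.9% lower). With 7 genes these shares are not far from the background, so the number of members called is not in itself a result about them. The median log2 fold change of the tested members was -0.74 in DNL against WT, -0.9985 in OA against WT and 0.35 in DNL against OA, beside -0.02, -0.03 and 0.01 over all genes. These medians of 7 genes that differed in direction rested on single genes and libraries. The OA value was that of PCK1, which was not called, and it was -0.40 without OA replicate 2 and -0.50 without OA replicate 1 or WT replicate 1. The median in DNL against WT was -0.47 without DNL replicate 3 and -0.46 without WT replicate 1, and that in DNL against OA was 0.85 without DNL replicate 3 and 0.99 without OA replicate 1. A call here is an adjusted p under 0.05 in edgeR's quasi-likelihood test, with Benjamini-Hochberg adjustment over all tested genes.

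Promoters are shown for PC, PCK2, PPARGC1A and CREB3L3 because these members were called against WT in both models. Each runs 5′ to 3′ on the gene's own strand from 250 bases before to 50 bases after a RefSeq start site (GRCh38.p14). PC (the outermost of 3 listed start sites) lies at chr11:66958334-66958633 on the minus strand, PCK2 at chr14:24094061-24094360 on the plus strand, PPARGC1A (the start site inside the GENCODE release 29 gene) at chr4:23881052-23881351 on the minus strand, and CREB3L3 at chr19:4153381-4153680 on the plus strand. Capitals mark any match on either strand to the motifs listed after the sequences.
PC: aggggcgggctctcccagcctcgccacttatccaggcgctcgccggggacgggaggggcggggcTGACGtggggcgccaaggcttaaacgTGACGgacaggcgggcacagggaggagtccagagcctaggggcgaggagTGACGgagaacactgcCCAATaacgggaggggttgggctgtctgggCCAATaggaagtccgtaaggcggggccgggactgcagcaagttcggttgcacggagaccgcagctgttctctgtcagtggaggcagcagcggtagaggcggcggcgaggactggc
PCK2: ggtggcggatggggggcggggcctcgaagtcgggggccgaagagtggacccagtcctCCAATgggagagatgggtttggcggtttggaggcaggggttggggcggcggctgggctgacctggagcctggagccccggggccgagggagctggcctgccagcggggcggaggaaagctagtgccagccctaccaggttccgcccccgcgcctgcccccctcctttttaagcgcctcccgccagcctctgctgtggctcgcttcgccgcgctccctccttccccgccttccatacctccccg
PPARGC1A: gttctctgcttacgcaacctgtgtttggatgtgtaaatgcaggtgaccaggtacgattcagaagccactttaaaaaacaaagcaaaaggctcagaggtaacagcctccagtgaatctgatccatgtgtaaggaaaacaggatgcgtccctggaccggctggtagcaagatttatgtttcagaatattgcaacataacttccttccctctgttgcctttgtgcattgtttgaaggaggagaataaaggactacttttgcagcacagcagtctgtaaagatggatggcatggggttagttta
CREB3L3: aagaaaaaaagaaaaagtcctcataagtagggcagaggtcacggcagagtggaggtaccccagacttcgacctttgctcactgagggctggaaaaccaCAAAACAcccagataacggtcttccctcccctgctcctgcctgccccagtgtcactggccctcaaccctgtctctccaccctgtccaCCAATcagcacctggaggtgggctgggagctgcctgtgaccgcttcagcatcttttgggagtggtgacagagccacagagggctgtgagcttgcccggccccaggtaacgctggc

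The motifs searched were the cAMP response element TGACGTCA and its shorter form TGACG, which the full element contains. Next came the forkhead motifs TGTTTAC and TGTTTTG, the composite C/EBP-ATF motif TGATGNAAN, the HNF4-type motif CAAAGTCCA and the CCAAT box. Over 35116 RefSeq promoters of the same length all these motifs were present in 1.85%, 24.6%, 3.42%, 4.92%, 3.61%, 0.384% and 34.6%, in that order. The PC promoter shown held TGACG at 3 places, starting 186, 160 and 111 bases before the start site, and CCAAT at 2. Neither of the other listed PC start sites held TGACG. The promoter at chr11:66907904-66908203 held CCAAT once, and that at chr11:66905985-66906284 held none of the motifs. PCK2 held a single CCAAT box and CREB3L3 a CCAAT box and, on the opposite strand, TGTTTTG. The PPARGC1A promoter shown held none of the motifs, and its other listed start site, at chr4:24472856-24473155, held TGACG once. Neither covers the 5′ end of the GENCODE gene, at chr4:23904089, and which start site these cells use was not tested. A match describes these letters only, and a missing match says nothing of a factor's binding. Promoters were matched for 7 of the 8 members.

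Library totals of estimated counts spanned 16447398 to 36147431 for DNL, 7836520 to 28636903 for OA and 26425694 to 43043347 for WT. The labelled cell type was checked by 11 hepatocyte markers, none of them at 0 throughout. Summed over them, DNL libraries held 78125 to 80281 CPM, OA libraries 14531 to 16564 CPM and WT libraries 44406 to 46052 CPM, CPM being the count scaled to a common library total with TMM factors, and the marker sum thus moved with the groups. Of the 11, 8 were higher and 2 lower in DNL against WT (1 lower without DNL replicate 1 or 2), and 0 were higher and 10 lower in OA against WT. Over all tested genes 27.1% were higher and 26.8% lower in DNL, and 30.4% higher and 29.7% lower in OA, each against WT. The OA libraries also differed among themselves in 7 fibroblast and stellate markers, whose sum was 95.3, 223 and 1039 CPM in replicates 1, 2 and 3, against 90.6 to 92.7 CPM in DNL and 71.0 to 77.0 CPM in WT. COL1A1 made up much of it, at 214 ± 282 CPM in OA and 0.858 ± 0.198 CPM in WT (SD, n = 3), and COL1A2 and LUM were at 0 in DNL and WT. Of the 6 of these markers tested, COL1A1 and COL3A1 were called higher and PDGFRB lower in OA against WT. In DNL against WT 0 were higher and 1, PDGFRB, was lower. In limma-voom COL1A1 (adjusted p = 0.195) and COL3A1 (adjusted p = 0.117) were not called in OA against WT. OA replicate 3 was also the shallowest library. Without it the members called were again 5, 4 and 6 in the 3 comparisons. The 4 endothelial markers summed to between 5.28 and 6.90 CPM in DNL libraries, between 0.914 and 2.12 CPM in OA libraries and between 1.51 and 1.95 CPM in WT libraries. For the 5 leukocyte markers the sums lay between 219 and 231 CPM in DNL libraries, between 116 and 139.9 CPM in OA libraries and between 73.3 and 73.4 CPM in WT libraries, with CD3E at 0. Of the 4 leukocyte markers tested, CD74 and CD14 were called higher and CD68 lower in DNL against WT. In OA against WT CD74 was higher and CD14 lower. Kidney tubule markers stayed under 3 CPM, with SLC22A6, SLC22A8 and UMOD at 0. The part of these markers in the members' values was not tested, and in bulk RNA fewer cells of a type and less RNA per cell cannot be told apart.

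**Figure D1:**
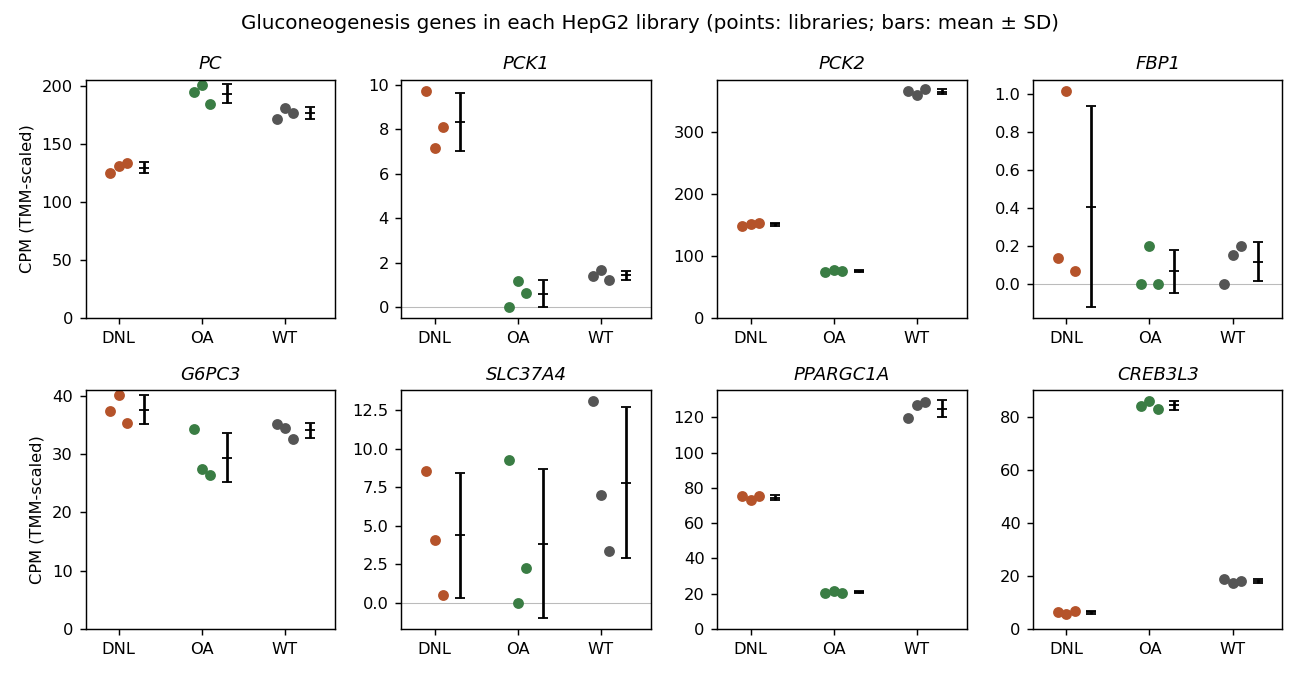
TMM-scaled CPM (vertical axes, each with its own scale) of the 8 genes in the DNL, OA and WT libraries. Points are single libraries, and bars give the mean ± SD of 3 libraries. PCK2 and PPARGC1A lie lower in DNL than in WT and lowest in OA, CREB3L3 stands at 82.8 to 85.9 CPM in OA alone, and SLC37A4 and FBP1 scatter within every group.

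PC, the biotin-dependent carboxylase that opens the pathway (chr11:66848233-66958376, minus strand), had 125, 131 and 133 CPM in DNL, 194, 200.5 and 184 CPM in OA, and 171, 181 and 177 CPM in WT. No 2 of the 3 groups overlapped, with DNL lowest and OA highest. PC fell in DNL against WT (log2 fold change -0.44, SE 0.0454, adjusted p = 3.08e-06), a level 0.735 times that of WT. In OA against WT it rose by 0.13 on the log2 scale (SE 0.0454, adjusted p = 0.0216), a 1.10-fold difference. It no longer passed when OA replicate 2 was left out (adjusted p = 0.105), without WT replicate 1 (adjusted p = 0.079), without WT replicate 3 (adjusted p = 0.0674) and with no filter on low counts (adjusted p = 0.0568). Between the models, PC was lower in DNL than in OA by 0.58 on the log2 scale (log2 fold change -0.58, SE 0.0461, adjusted p = 1.73e-07). LRFN4, which overlaps PC on the opposite strand, averaged 6.50 ± 1.35 CPM in DNL, 18.9 ± 1.46 CPM in OA and 19.5 ± 1.30 CPM in WT, and whether the counting used strand is not given in the sources used here.

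PCK2, the mitochondrial phosphoenolpyruvate carboxykinase (chr14:24094053-24110598, plus strand), had 149, 152 and 154 CPM in DNL, 75.2, 77.3 and 75.6 CPM in OA, and 366, 361 and 370.0 CPM in WT. The 3 groups were far apart and tight within. PCK2 fell in DNL against WT (log2 fold change -1.27, SE 0.0364, adjusted p = 2.08e-11) and in OA against WT (log2 fold change -2.26, SE 0.0388, adjusted p = 5.29e-13). WT thus held 2.41 times the level of DNL and 4.80 times that of OA. DNL was in turn higher than OA by 0.99 on the log2 scale (SE 0.0384, adjusted p = 1.73e-10), or 1.99-fold. Of all tested genes, 3.75% had a lower log2 fold change in DNL against WT, and 1.25% in OA against WT. NRL, an eye transcription factor gene that overlaps PCK2 on the opposite strand, was at 2.43 ± 0.466 CPM in DNL, 4.83 ± 1.38 CPM in OA and 3.77 ± 0.625 CPM in WT, far under PCK2 throughout.

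PCK1, the cytosolic carboxykinase and the classical hormone-controlled enzyme of the pathway (chr20:57561080-57568112, plus strand), was scarce. Its estimated counts were 317, 108 and 196 in DNL, 0, 36.5 and 5.26 in OA, and 61.0, 49.0 and 34.2 in WT. In scaled terms that was 9.75, 7.16 and 8.13 CPM in DNL, 0, 1.20 and 0.624 CPM in OA, and 1.40, 1.66 and 1.25 CPM in WT. All DNL libraries lay above all others, and the OA libraries lay below WT, the highest of them by a small margin. PCK1 rose in DNL against WT (log2 fold change 2.54, SE 0.484, adjusted p = 0.00125), 5.83-fold, and was higher in DNL than in OA by 3.54 on the log2 scale (SE 0.556, adjusted p = 0.000247). The last value was 5.07 without OA replicate 2 and 3.05 without OA replicate 1, and passed in both cases. OA against WT did not pass (log2 fold change -0.9985, SE 0.574, 95% interval -2.12 to 0.13, adjusted p = 0.160). Without OA replicate 2, the OA library with the most PCK1 counts, the difference was -2.53 with an adjusted p of 0.00842, so whether this comparison passed rested on 1 library. The 0 in OA replicate 1 allows up to 0.256 CPM of its unscaled total, for counting error only.

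Per kilobase of the principal transcript, PCK1 and PCK2 together held 66.2 ± 0.957 CPM per kb in DNL, 32.4 ± 0.620 CPM per kb in OA and 155 ± 1.86 CPM per kb in WT (SD, n = 3). PCK1 took 2.91% ± 0.482 of that sum in DNL, 0.428% ± 0.419 in OA and 0.213% ± 0.0331 in WT. The rise of PCK1 in DNL was therefore small beside the fall of PCK2, and mitochondrial PCK2 made up nearly all carboxykinase transcripts in each group.

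FBP1, the fructose-1,6-bisphosphatase (chr9:94603133-94640249, minus strand), was at the limit of detection and did not pass the filter on low counts. Its estimated counts were 4.38, 15.3 and 1.61 in DNL, 0, 6.00 and 0 in OA, and 0, 4.45 and 5.40 in WT. The groups overlapped in every comparison, and no difference was detectable at this depth. FBP1 is the only member without a test.

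G6PC3, the widely expressed glucose-6-phosphatase (chr17:44070735-44076344, plus strand), stayed between 26.5 and 40.2 CPM over all 9 libraries. It had 37.5, 40.2 and 35.3 CPM in DNL, 34.3, 27.5 and 26.5 CPM in OA, and 35.1, 34.4 and 32.7 CPM in WT. DNL lay just above WT, and OA replicate 1 lay among the WT values while the other OA libraries lay below. Neither model passed the test against WT. The log2 fold change was 0.14 in DNL (95% interval -0.04 to 0.32, adjusted p = 0.220) and -0.21 in OA (95% interval -0.40 to -0.02 before adjustment, adjusted p = 0.0728). The OA difference passed without OA replicate 1 (-0.34, adjusted p = 0.00333), without the 2 shallowest libraries (-0.32, adjusted p = 0.0187) and in limma-voom (adjusted p = 0.0319). DNL was higher than OA by 0.35 on the log2 scale (SE 0.0965, adjusted p = 0.00624). Scaled by library totals alone, with no TMM factor, that difference was 0.12 (adjusted p = 0.309), and DNL against WT changed sign, to -0.03 (adjusted p = 0.838).

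SLC37A4, the glucose-6-phosphate carrier of the endoplasmic reticulum (chr11:119024114-119030906, minus strand), could not be compared with any precision. Its estimated counts were 278, 61.0 and 11.95 in DNL, 117, 0.238 and 18.9 in OA, and 568, 206 and 92.0 in WT. In CPM these were 8.56, 4.06 and 0.497 in DNL, 9.24, 0.00784 and 2.25 in OA, and 13.1, 6.96 and 3.36 in WT. The groups overlapped in every comparison, and replicate 1 was the highest in each group. The log2 fold change was -0.82 in DNL against WT (95% interval -3.52 to 1.88, adjusted p = 0.650), -1.13 in OA against WT (-4.00 to 1.75, adjusted p = 0.543) and 0.31 in DNL against OA (-2.64 to 3.25, adjusted p = 0.875). The last of these turned to -0.76 without DNL replicate 1 and to -0.42 without OA replicate 2. TRAPPC4, which overlaps SLC37A4 on the opposite strand, was far more even, at 13.6, 8.94 and 9.87 CPM in DNL, 9.73, 11.7 and 13.5 CPM in OA, and 14.3, 14.1 and 15.1 CPM in WT. How the estimator divided reads between the pair was not tested.

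G6PC1, the catalytic partner of SLC37A4 in liver, is not among the 8 genes but acts at the same step. It had 34.3, 31.5 and 37.0 CPM in DNL, 1.79, 1.75 and 1.86 CPM in OA, and 77.9, 81.2 and 78.6 CPM in WT. The groups were well apart. G6PC1 fell in DNL against WT (log2 fold change -1.21, SE 0.0678, adjusted p = 1.10e-08) and in OA against WT (log2 fold change -5.46, SE 0.101, adjusted p = 9.24e-13). It was 19.1-fold higher in DNL than in OA (log2 fold change 4.25, SE 0.104, adjusted p = 2.59e-12). G6PC3, at the same step, passed no test against WT, and the difference between the 2 genes' changes was not tested. G6PC2, the islet form, was listed at 0 in all 9 libraries.

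PPARGC1A (chr4:23755041-23904089, minus strand) had 75.3, 72.9 and 75.4 CPM in DNL, 20.6, 21.5 and 20.4 CPM in OA, and 119.5, 127 and 128 CPM in WT. The 3 groups did not overlap. The coactivator fell in DNL against WT (log2 fold change -0.74, SE 0.0507, adjusted p = 6.80e-08), to 0.597 times the WT level. It fell further in OA against WT (log2 fold change -2.58, SE 0.0574, adjusted p = 3.43e-12), WT being 5.97 times as high, and 0.814% of tested genes had a lower log2 fold change. DNL was 3.56-fold higher than OA (log2 fold change 1.83, SE 0.0575, adjusted p = 2.46e-11).

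CREB3L3 (chr19:4153601-4173054, plus strand) had 6.22, 5.52 and 6.86 CPM in DNL, 84.2, 85.9 and 82.8 CPM in OA, and 18.8, 17.2 and 18.3 CPM in WT. Here DNL lay at the bottom and OA at the top, with wide gaps on both sides of WT. CREB3L3 fell in DNL against WT (log2 fold change -1.53, SE 0.0849, adjusted p = 9.78e-09) and rose 4.66-fold in OA against WT (log2 fold change 2.22, SE 0.0755, adjusted p = 1.00e-10). OA was 13.5 times as high as DNL (log2 fold change of DNL against OA -3.75, SE 0.0856, adjusted p = 1.38e-12). Without OA replicate 3, where the fibroblast marker sum was 1039 CPM, the difference between OA and WT was 2.23 on the log2 scale (adjusted p = 6.15e-10). OA replicate 2, where that sum was 223 CPM, stayed in this fit, and the part of the fibroblast markers was not tested. Of the 11 hepatocyte markers 10 were lower in OA, and their part in the CREB3L3 values was not tested.

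**Figure D2:**
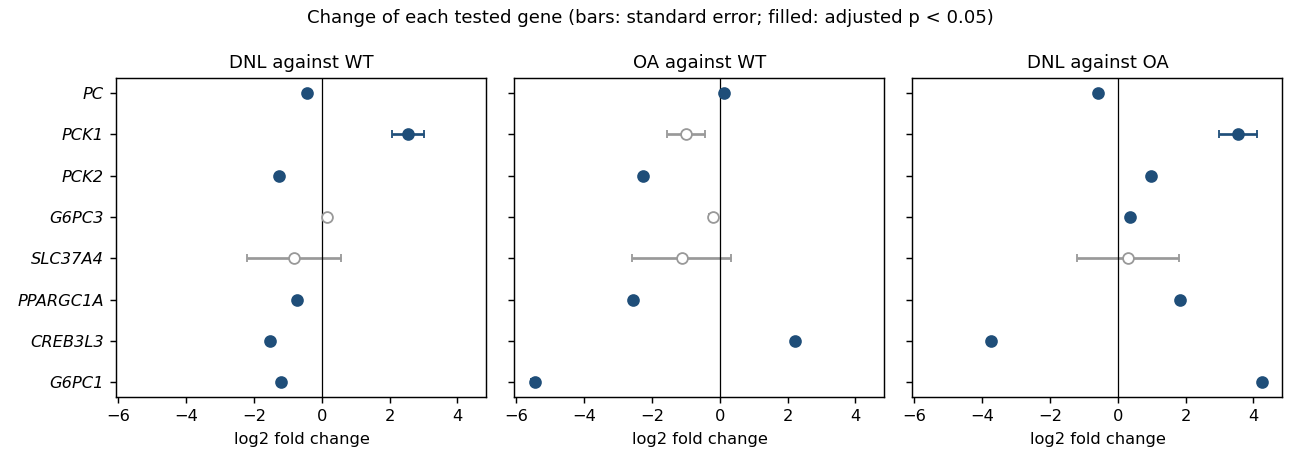
Log2 fold changes (horizontal axis) of the 7 tested members and of G6PC1 in DNL against WT, OA against WT and DNL against OA. Points are the edgeR estimates, bars the standard errors, and filled points passed at an adjusted p under 0.05. PCK2 and PPARGC1A lie left of 0 in both models, CREB3L3 lies at -1.53 in DNL and at 2.22 in OA, and SLC37A4 has the widest bars.

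The 2 models share their WT samples, so their contrasts with WT are not independent. Side by side, the values were -1.27 and -2.26 for PCK2 and -0.74 and -2.58 for PPARGC1A in DNL and OA against WT, on the log2 scale. Of all tested genes 12.0% were called lower in both, and these 2 members were among them. PC (-0.44 and 0.13) and CREB3L3 (-1.53 and 2.22) were lower in DNL and higher in OA, as were 6.82% of tested genes. In OA the hepatocyte markers were lower along with PCK2 and PPARGC1A, while in DNL 8 of 11 hepatocyte markers were higher and these 2 members lower. No member was higher in both (12.3% of genes) or higher in DNL and lower in OA (6.67% of genes). The 3 values of each group did not overlap for 6, 5 and 6 of the 7 tested members in DNL against WT, OA against WT and DNL against OA, where 64.7%, 65.6% and 66.2% of all genes did not.

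Levels of different members were compared per kilobase of the principal transcript in GENCODE release 29. In DNL the order was PCK2 (64.3 ± 1.15 CPM per kb), PC (30.9 ± 1.06), G6PC3 (24.6 ± 1.60), PPARGC1A (11.8 ± 0.219), CREB3L3 (2.37 ± 0.255), PCK1 (1.92 ± 0.301), SLC37A4 (1.85 ± 1.71) and FBP1 (0.273 ± 0.356). In OA PC led (46.1 ± 1.94 CPM per kb), followed by PCK2 (32.3 ± 0.488), CREB3L3 (32.2 ± 0.602), G6PC3 (19.2 ± 2.78), PPARGC1A (3.30 ± 0.0951), SLC37A4 (1.63 ± 2.04), PCK1 (0.140 ± 0.139) and FBP1 (0.0443 ± 0.0768). In WT PCK2 led (155 ± 1.91 CPM per kb), then PC (42.1 ± 1.19), G6PC3 (22.2 ± 0.829), PPARGC1A (19.8 ± 0.762), CREB3L3 (6.91 ± 0.308), SLC37A4 (3.31 ± 2.08), PCK1 (0.331 ± 0.0473) and FBP1 (0.0780 ± 0.0694). Neighbours whose libraries overlapped were CREB3L3 with PCK1, PCK1 with SLC37A4 and SLC37A4 with FBP1 in DNL. In OA they were PCK2 with CREB3L3, PPARGC1A with SLC37A4, SLC37A4 with PCK1, and PCK1 with FBP1.

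At each one-way step the summed gluconeogenic transcripts were set beside those of the opposing glycolytic enzymes, per kilobase. At phosphoenolpyruvate, PCK1 and PCK2 made up 15.7% ± 0.433 of the combined sum with the pyruvate kinases PKLR and PKM in DNL, 10.7% ± 0.0313 in OA and 51.8% ± 1.27 in WT. PC, which acts before PCK1 and PCK2, was not counted in that sum. The pyruvate kinases summed to 357 ± 6.49 CPM per kb in DNL, 270 ± 4.55 in OA and 145 ± 5.63 in WT, so both sides of the ratio shifted. At glucose 6-phosphate, G6PC1, G6PC2 and G6PC3 made up 33.0% ± 0.706 in DNL, 35.8% ± 4.19 in OA and 45.8% ± 0.486 in WT beside the hexokinases and glucokinase. Those summed to 72.5 ± 1.39 CPM per kb in DNL, 35.4 ± 1.55 in OA and 56.7 ± 0.48 in WT. The glucose-6-phosphatases summed to 35.6 ± 0.723 CPM per kb in DNL, 19.8 ± 2.77 in OA and 47.8 ± 1.02 in WT. G6PC1 held 11.1, 0.581 and 25.6 CPM per kb of this in DNL, OA and WT, and G6PC3 held 24.6, 19.2 and 22.2. The OA share thus came almost wholly from G6PC3, and both sides of the ratio were lower there than in WT. At fructose 1,6-bisphosphate, the 2 bisphosphatases made up 0.522% ± 0.672 in DNL, 0.173% ± 0.155 in OA and 0.171% ± 0.151 in WT, and the phosphofructokinases took nearly everything. These are shares of transcripts, not of enzyme activity or flux.

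**Figure D3:**
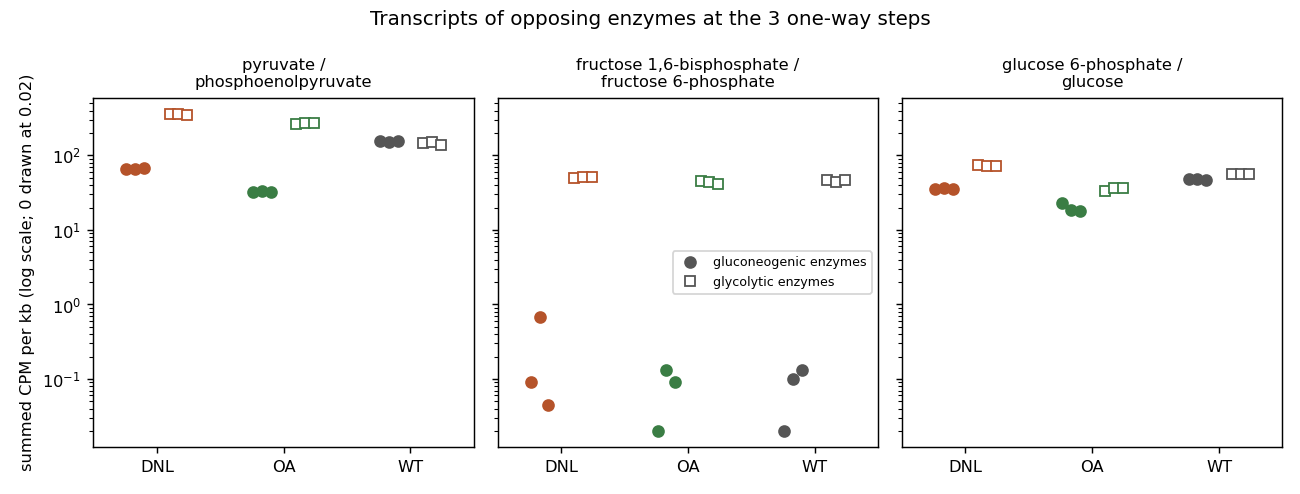
Summed CPM per kb on a log scale (vertical axis) of gluconeogenic (filled) and opposing glycolytic (open) transcripts at the one-way steps in each library, a sum of 0 being drawn at 0.02. At phosphoenolpyruvate, where PC is not counted, the 2 sides are level in WT and apart in DNL and OA. At fructose 1,6-bisphosphate the gluconeogenic side is under 1 CPM per kb in every library.

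Genes around the pathway were described by lists. Of all 13636 tested genes, 53.8% were called in DNL against WT (27.1% higher, 26.8% lower). In OA against WT 60.0% were called (30.4% higher, 29.7% lower), and in DNL against OA 62.8% (31.9% higher, 30.9% lower). A list count near these shares, here or in the paragraphs below, is not in itself a result about the list. The reversible steps that glycolysis and gluconeogenesis share were higher in DNL against WT for 9 of 10 tested genes, with 0 lower, while in OA against WT 3 were higher and 1 lower. The median log2 fold change was 0.94 in DNL and 0.08 in OA. With library totals only, 7 were higher and 1 lower in OA against WT. ALDOA, an aldolase, had 1341 ± 17.1 CPM in DNL against 582 ± 8.99 CPM in WT (log2 fold change 1.21, adjusted p = 1.75e-11). ALDOC, its brain-type relative, rose 2.65-fold in OA against WT. ALDOC was also higher in DNL against WT, by 3.14 to 3.39 on the log2 scale over the alternatives run. In DNL against OA it was higher by 1.66 to 1.94. Of 12 opposing glycolytic genes, 10 were higher and 1 lower in DNL against WT, and 7 higher and 3 lower in OA against WT. PKM rose 2.47-fold in DNL and 1.91-fold in OA. PKLR, the liver-type pyruvate kinase, was higher in DNL than in OA by 2.27 on the log2 scale, at 23.8 ± 0.344 CPM in DNL and 4.75 ± 0.905 CPM in OA. HK2, a hexokinase, fell in OA against WT, to 0.588 times the WT level.

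Transcripts that serve the supply of the pathway were counted next. Of 11 genes of mitochondrial pyruvate entry and the malate-aspartate shuttle, 1 was higher and 3 lower in DNL against WT, 1 higher and 7 lower in OA against WT, and 9 higher and 1 lower in DNL against OA (6 and 2 with library totals only). The number higher in DNL against WT was 2 when any DNL library, OA replicate 1 or WT replicate 1 was left out. MPC1, a subunit of the mitochondrial pyruvate carrier, fell to 27.1 ± 3.25 CPM in OA, against 66.1 ± 2.53 CPM in WT (log2 fold change -1.29, adjusted p = 2.50e-08). GOT1, the cytosolic aspartate aminotransferase, fell by 0.55 on the log2 scale in DNL and by 0.78 in OA. Of 10 tested genes (15 listed) that bring in lactate, amino acids or glycerol, 1 was higher and 6 lower in DNL against WT, and 1 higher and 7 lower in OA against WT. GPD1, the cytosolic glycerol-3-phosphate dehydrogenase, had 18.5 ± 0.704 CPM in DNL, 12.02 ± 2.43 CPM in OA and 81.7 ± 2.90 CPM in WT. LDHA, which interconverts lactate and pyruvate, was the gene of this list called higher in DNL against WT, 2.62-fold. TAT, the tyrosine aminotransferase, fell in DNL to 7.75 ± 0.287 CPM, against 33.8 ± 1.37 CPM in WT.

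Among the biotin-dependent enzymes, to which PC belongs, and the genes of biotin handling, 4 of 9 were higher and 4 lower in DNL against WT, and 0 were higher and 7 lower in OA against WT. ACACA, the acetyl-CoA carboxylase of fatty acid synthesis, had 440 ± 19.4 CPM in DNL against 150.4 ± 11.9 CPM in WT, while PC fell there. BTD, the biotinidase, rose 1.59-fold in DNL and fell in OA to 0.569 times the WT level. No gene of this list was called higher in OA, where PC was higher by 1.10-fold. Of 10 genes of serine and glycine synthesis and the amino acid response, to which PCK2 has been linked through ATF4, 1 was higher and 9 lower in DNL against WT, and 2 higher and 5 lower in OA against WT. SESN2, a stress-induced protein gene, had 28.0 ± 2.67 CPM in DNL against 112 ± 2.21 CPM in WT. PSAT1, the phosphoserine aminotransferase, had 273 ± 7.21 CPM in OA against 780 ± 6.81 CPM in WT (log2 fold change -1.52, adjusted p = 7.26e-12). DDIT3, a stress-induced transcription factor gene, rose 1.65-fold in OA against WT. The other gene called higher there, SHMT1, a serine hydroxymethyltransferase, lost its call in 9 of 18 alternatives, among them those without OA replicate 1, OA replicate 3 or any WT library.

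Of the 23 transcription factors and cofactors of the pathway other than the members, 6 were higher and 12 lower in DNL against WT, and 7 higher and 12 lower in OA against WT (9 and 9 with library totals only). ESRRA, a nuclear receptor that works with PGC-1 alpha, had 44.1 ± 2.26 CPM in DNL against 114 ± 5.33 CPM in WT. NR0B2, a corepressor of hepatic genes, rose 1.88-fold in DNL. HNF4A, a nuclear receptor of hepatocyte identity, had 257 ± 28.4 CPM in OA against 567 ± 13.7 CPM in WT, and NR4A1, an immediate early factor, rose 5.26-fold in OA. Of 20 genes of glucagon and insulin signalling, 4 were higher and 11 lower in DNL against WT, and 2 higher and 12 lower in OA against WT (4 higher with library totals only). IRS1, an insulin receptor substrate, fell in both, to 118 ± 5.92 CPM in DNL and 131.5 ± 3.75 CPM in OA, against 235 ± 2.58 CPM in WT. IRS2 had 0.258 ± 0.179 CPM in DNL, 5.21 ± 0.825 CPM in OA and 0.784 ± 0.116 CPM in WT.

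PGC-1 alpha is known for driving mitochondrial genes. In a list of 12 such genes, 3 were higher and 4 lower in DNL against WT, 0 higher and 9 lower in OA against WT, and 8 higher and 2 lower in DNL against OA. With library totals only these counts were 1 and 6, 0 and 8, and 5 and 3. NRF1, a transcription factor of mitochondrial genes and 1 of the 2 lower in DNL against OA, lost its call in 11 of 18 alternatives. Of these, 7 left out 1 library (DNL replicate 1 or 2, OA replicate 2 or 3, or any of WT), and the count lower was then 1. After thinning to the shallowest library TFB2M, the other gene lower, was not called either (adjusted p = 0.0609). Without WT replicate 1, 5 genes were higher in DNL against WT. The median log2 fold change was 0.02 in DNL against WT, which turned to -0.14 with library totals only, and -0.29 in OA against WT. TFB1M, a mitochondrial ribosomal RNA methyltransferase, fell in OA to 18.5 ± 0.670 CPM, against 45.4 ± 0.514 CPM in WT (log2 fold change -1.29, adjusted p = 7.67e-09). UQCRC2, a subunit of respiratory complex III, rose 1.62-fold in DNL against WT. In 11 tested genes (15 listed) of CREB3L3 targets, relatives and processing proteases, 4 were higher and 4 lower in DNL against WT, and 2 higher and 5 lower in OA against WT. The number higher in OA was 1 without OA replicate 2, and 4 without DNL replicate 1, DNL replicate 2, OA replicate 1 or WT replicate 1. APOA4 and APOA5, apolipoprotein genes known from mouse as targets of CREB-H, went opposite ways in OA. APOA4 had 17.4 ± 2.74 CPM in DNL, 8.38 ± 2.45 CPM in OA and 2.55 ± 0.473 CPM in WT, higher in both models. APOA5 fell in OA to 8.84 ± 1.90 CPM, against 30.8 ± 0.872 CPM in WT. HAMP, which encodes hepcidin, had 0.0253 ± 0.0438 CPM in DNL against 1.29 ± 0.322 CPM in WT. MBTPS2, the site-2 protease that releases CREB-H, fell in OA to 0.474 times the WT level. Among 4 tested relatives of the glucose-6-phosphatase system, G6PC1 fell in both models and SLC37A2, a sugar-phosphate carrier related to SLC37A4, rose 2.36-fold in DNL and 4.10-fold in OA. In that list 2 were higher and 1 lower in DNL against WT, and 3 higher and 1 lower in OA against WT. SLC37A3, another relative and the other gene higher in DNL, lost its call with library totals only (adjusted p = 0.562) and without DNL replicate 2 or 3 or WT replicate 2 or 3, which left 1 higher. SLC37A3 was not called there after thinning to the shallowest library either (adjusted p = 0.146).

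**Figure D4:**
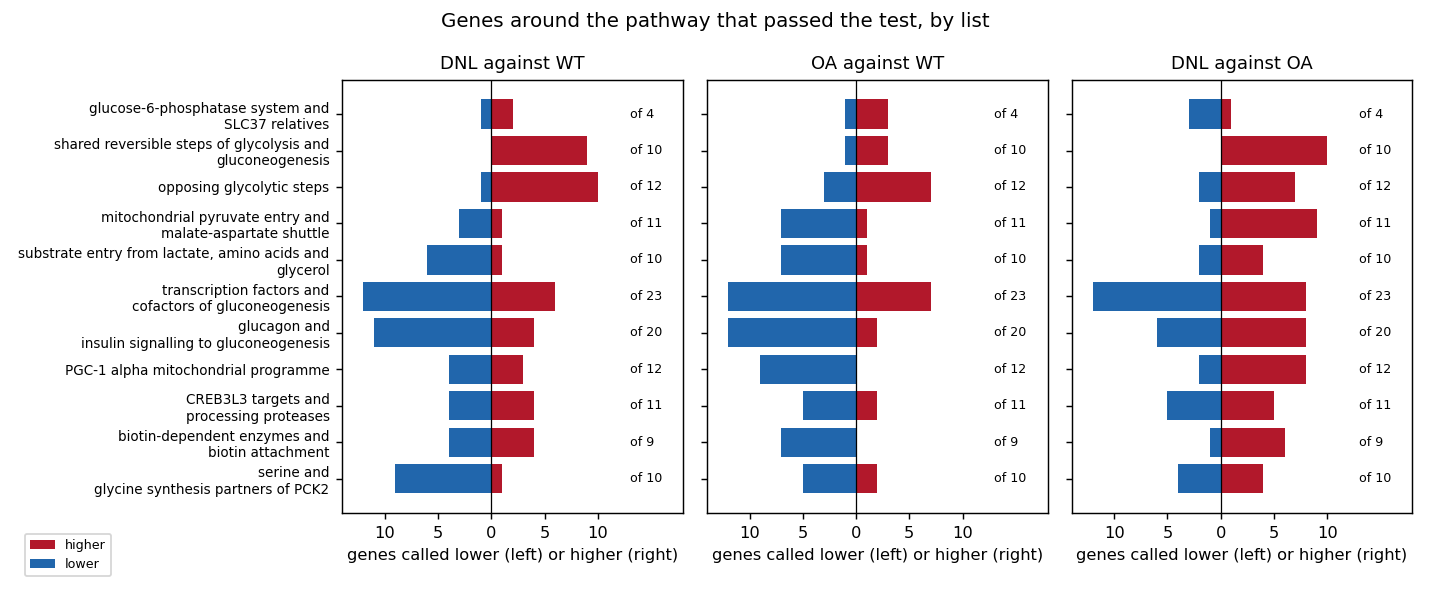
Number of genes called lower (left, blue) or higher (right, red) in each list around the pathway (rows), for the 3 comparisons, with the number tested at the right of each row. The shared reversible steps lie on the higher side in DNL, with 9 of 10 called, and the PGC-1 alpha programme lies on the lower side in OA, with 9 of 12 called. Over all tested genes 27.1% were called higher in DNL against WT and 29.7% lower in OA against WT.

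For each tested member the genes with the nearest pattern were found as those with the smallest root mean square difference in centred log2(CPM + 0.5) over the 9 samples, among 12203 genes. For PC they were PSMD3 (0.0380), SMIM13 (0.0414) and ZNF587B (0.0434). For PCK2 they were MAT1A (0.0844), CYP19A1 (0.112) and SRCIN1 (0.119), MAT1A being the liver methionine adenosyltransferase, at 105 ± 6.49 CPM in DNL, 51.9 ± 5.90 CPM in OA and 241 ± 5.16 CPM in WT. For PPARGC1A they were SLC38A3 (0.0837), a glutamine transporter, AKR1D1 (0.121), a steroid reductase, and GPAM (0.123), a glycerol-3-phosphate acyltransferase. CREB3L3 was nearest to IL11 (0.169), C11orf96 (0.213) and CSDC2 (0.255), and IL11, a cytokine gene, had 11.5 ± 1.09 CPM in DNL, 174 ± 29.8 CPM in OA and 32.7 ± 1.78 CPM in WT. PCK1 was nearest to CCL20 (0.365), MUC5B (0.373) and ASAH2 (0.379), and G6PC3 to PDSS1 (0.0466), DNAJC21 (0.0470) and PSMA6 (0.0567). No gene came near SLC37A4, whose smallest difference was 1.03, to PRSS53. These distances describe 9 libraries in 3 groups, so a small value says mostly that the group means have the same order and spacing.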

How the data were processed

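RNA was measured in 9 HepG2 samples, 3 per group. The deposited table holds estimated counts per gene, made by the authors with kallisto 0.48.0 after FastQC 0.11.9 on GRCh38, per the submitters' processing notes. Annotation and strand setting of that counting are not given in the sources, so reads of overlapping genes may be divided between them. Of 19317 genes, 19316 had a symbol and 19272 were in GENCODE release 29, which gave gene coordinates and transcript lengths. One protocol text is the same for every sample and describes DNL, so treatments were read from each sample's own label.

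Estimated counts were rounded, filtered with filterByExpr, scaled by TMM and fitted for all 9 samples at once in edgeR 4.0.16 (R 4.3.3), with group as the only factor. The robust quasi-likelihood test with Benjamini-Hochberg adjustment over 13636 genes gave all comparisons. Common dispersion came to 0.0112 (10.6% variation between replicates). SE was derived from the F statistic, and 95% intervals are the estimate ± 1.96 SE. DESeq2 1.42.0, limma-voom (limma 3.58.1), other scalings, no filter, thinning to 7836520 counts, a replicate block and leaving out libraries were the alternatives. The procedure was also run on simulated counts in which a small set of genes was changed, in DNL only. In these data 53.8% to 62.8% of tested genes were called, so that run does not check this setting.

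The members and the 16 other lists were chosen with earlier results of these data known. Genes named were the members, G6PC1 and G6PC2, the leading genes of those lists by adjusted p, higher and lower, and the nearest patterns among genes averaging 1 CPM or more. Overlapping neighbours (LRFN4, NRL, TRAPPC4) and the marker genes COL1A2, LUM, CD3E, SLC22A6, SLC22A8 and UMOD were named after their values were seen. Whether replicates were separate cultures is not labelled. The p-values then reflect only the variation among these samples, possibly technical. Chi-square per degree of freedom between replicates was 5.29 to 15.8, so no pair was merged. The labels give no batch. Limits from a count of 0 use 3 counts and cover counting error only, since no molecular identifiers are described.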

Additional observations from a re-analysis of the deposited data

How the results depend on the processing

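Of 159 results for single named genes, 141 kept their direction and their side of the threshold under every alternative run (18, or 17 for HAMP in 2 comparisons), 18 changed under at least 1 and 2 changed sign. The sign changes were those of uncalled members: G6PC3 in DNL against WT with library totals only (log2 fold change -0.0252), and SLC37A4 in DNL against OA without DNL replicate 1 (-0.76) or OA replicate 2 (-0.42), within a range of -0.76 to 2.77 over the libraries left out in turn. The number of members called was 5 in DNL against WT under every alternative run, 3 to 5 in OA against WT and 5 to 6 in DNL against OA. PC and G6PC3 made the difference, apart from PCK1, called in OA against WT without OA replicate 2. Library totals only, the alternative without TMM factors, moved the median of all genes to -0.18 in DNL against WT and -0.22 in DNL against OA. Calls on the higher side were then 32.2% in DNL against WT (50.3% with TMM), 56.5% in OA against WT (50.5% with TMM) and 33.9% in DNL against OA (50.8% with TMM). Counts per list and medians of the members under these alternatives were added after seeing the data. Deviations from the group means correlated at -0.0112 to 0.0879 over 9 pairs of same-numbered samples. Over 18 pairs with different numbers the correlations were -0.0882 to 0.0474. The ranges overlapped and all values were small, the highest being DNL replicate 1 with WT replicate 1. The replicate block gave 7245, 8099 and 8472 called genes in DNL against WT, OA against WT and DNL against OA, beside 7342, 8188 and 8557 without it, and left the members called at 5, 4 and 6. Under it SHMT1 in OA against WT (adjusted p = 0.0595) and NRF1 in DNL against OA (adjusted p = 0.0557) were not called, as in 8 and 10 of the other alternatives. Estimated counts of FBP1 reached 15.3 at most, too few for its filter.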
